A study of Mus musculus with 6 samples.

Results

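The rows examined here are 6 mouse gene models with provisional names, Gm42418, Gm26917, Gm10800, Gm10801, Gm21738 and Gm26870, out of 19006 to 23295 mouse genes with a row in each deposited table. They are of 2 kinds, grouped under the working name of repeat- and rRNA-like genes. There are 2 members that lie in or beside an annotated ribosomal RNA copy, Gm42418 and Gm26917, and 4 members that hold a shared tandem repeat, called satellite-like here, Gm10800, Gm10801, Gm21738 and Gm26870. The 6 were selected on their names together with earlier measured results of these tables, among them the shares of counts that Gm10800 and Gm10801 take of FFPE and frozen SMART-Seq2 wells. Values of formalin-fixed, paraffin-embedded (FFPE) against frozen material are therefore given as a description, with no test. All 6 have a row in the bulk and plate tables, and 4 have a row in the droplet table, where Gm10801 and Gm21738 were not analysed.

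The tissue was brain of C57BL/6J mice aged 8 to 12 weeks, labelled cortex, and no source used here gives the number of mice or a pairing of samples. Nuclei came from 50 µm FFPE sections whose paraffin was removed with heated mineral oil, with heated xylene or with xylene at room temperature. The 64 bulk SCRB-seq wells hold 16 wells for each removal method and 16 of frozen tissue, each split evenly into wells of 100 and of 10 sorted nuclei, and the 12 bulk SMART-Seq2 wells hold 1 well of 100, 50 and 10 nuclei for each of these 4 groups. SMART-Seq2 plates of single nuclei hold 98 FFPE nuclei in batch 1, 134 FFPE nuclei in batch 2 and 137 frozen nuclei, and 1 droplet library holds 7031 FFPE nuclei. The method, the nuclei number and the frozen state of a well come from the tables' annotation. FFPE plates are annotated as left hemisphere and frozen plates as right hemisphere, so fixation and hemisphere cannot be told apart there.

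Total counts ran from 7512 to 167144 per SCRB-seq well and from 270363 to 942966 per SMART-Seq2 well, and all levels below are counts per 1000000 of the well's or nucleus's own total (CPM). Wells of a group are wells of 1 deposited sample, so p-values measure only the spread between these wells, which may be technical. Each SCRB-seq library pool holds 1 group at 1 nuclei number, so pool and group cannot be told apart. Of 5 cerebellar granule neuron markers, 4 had a row. Summed, they stood at 239 to 5121 CPM in FFPE and 0 to 33.9 CPM in frozen SCRB-seq wells, and at 386 to 2054 against 0 CPM in SMART-Seq2 wells, with Gabra6, Cbln1, Cbln3 and Zic1 all at 0 in the frozen ones. The labelled cortex therefore held granule neuron transcripts in FFPE wells, and their part in the FFPE-against-frozen values was not tested. In such bulk wells, fewer nuclei of a type and less RNA per nucleus cannot be told apart.

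Ribosomal RNA is transcribed by RNA polymerase I in the nucleolus as a long precursor, from which the mature rRNAs, 18S among them, are cut while the spacers between them are degraded. Major satellite DNA is an AT-rich tandem repeat that forms the heterochromatin beside mouse centromeres, and it is transcribed at a low level, by RNA polymerase II among others. All 3 assays prime reverse transcription with oligo(dT), so both kinds of RNA enter a library only where a run of A, in a tail or inside the transcript, is primed.

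The positions come from the GENCODE M21 annotation of GRCm38, the build the submitters' processing notes name as mm10. Gm26917, a lincRNA (ENSMUSG00000097971.3), spans 39843013 to 39846341 of chromosome 17 on the plus strand. Gm42418, a lincRNA of 1 exon (ENSMUSG00000098178.1), spans 39846958 to 39848788 of the same chromosome and strand, 616 bases further on. RefSeq (GRCm38.p6) places Rn18s-rs5, an 18S rRNA related sequence, at 39846354 to 39848202. It begins 12 bases after the end of Gm26917 and shares 1245 bases, 68.0%, of Gm42418, whose last 586 bases lie past it. The minus strand of Gm42418 carries AY036118, whose 923 bases all lie inside it, and CT010467.1, typed rRNA, so that 96.4% of its 30-base words recur in these models. No source used here gives the strand used in counting, so reads of Gm42418 and of the overlapping models cannot be told apart. No 30-base word of Gm26917 recurs in another annotated gene. The stretch of Gm42418 that crosses the end of Rn18s-rs5 is shown with the 18S side in capitals, and the last bases of Gm26917 are shown to mark where that model stops.
Gm42418 chr17:39848163-39848242 (plus strand): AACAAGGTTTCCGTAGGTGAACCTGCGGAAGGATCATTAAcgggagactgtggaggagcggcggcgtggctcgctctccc
Gm26917 chr17:39846262-39846341 (plus strand): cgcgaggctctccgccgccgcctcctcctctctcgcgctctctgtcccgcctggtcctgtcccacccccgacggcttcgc

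The satellite-like members lie on 3 chromosomes and share a repeat. Gm10801 (ENSMUSG00000075015.3, typed protein coding) is at 98662237 to 98664083 of chromosome 2 on the plus strand. Gm10800 (ENSMUSG00000075014.1, protein coding) is at 98666547 to 98667301 on the minus strand, 2463 bases away. Gm21738 (ENSMUSG00000095280.1, protein coding) spans 19415857 to 19418930 of chromosome 14 on the minus strand, and Gm26870 (ENSMUSG00000097312.1, lincRNA) spans 3000282 to 3038313 of chromosome 9 on the minus strand. Their longest transcripts, of 504 to 1170 bases, were 82.3% to 90.7% identical in pairwise local alignment. Each matched itself best when shifted by 225 to 234 bases, with 52.7% to 81.5% of bases identical. Of their 30-base words, 37.1% to 75.8% recur in 12 other annotated genes each, so the share of reads given to any 1 of them depends on how multiple matches were counted, which no source used here states. The 69-base windows below show the longest run common to exons of all 4, 42 bases in capitals, and were 94.2% to 98.6% identical to each other. The window of Gm26870 is read on the plus strand, opposite to its transcript.
Gm10800 chr2:98667233-98667301 (minus strand): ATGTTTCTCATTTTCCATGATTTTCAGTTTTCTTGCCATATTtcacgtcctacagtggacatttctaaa
Gm10801 chr2:98662305-98662373 (plus strand): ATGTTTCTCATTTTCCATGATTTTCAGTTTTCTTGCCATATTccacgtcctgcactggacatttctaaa
Gm21738 chr14:19417228-19417296 (minus strand): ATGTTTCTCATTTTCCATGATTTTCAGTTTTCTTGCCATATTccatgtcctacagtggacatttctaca
Gm26870 chr9:3014075-3014143 (plus strand): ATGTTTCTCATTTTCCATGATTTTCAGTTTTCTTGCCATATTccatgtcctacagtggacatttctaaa

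An exon of Gm21738 of 234 bases is shown whole, with the common run in capitals. It was picked because its length equals the shift at which the Gm21738 and Gm26870 transcripts repeat.
Gm21738 chr14:19417133-19417366 (minus strand): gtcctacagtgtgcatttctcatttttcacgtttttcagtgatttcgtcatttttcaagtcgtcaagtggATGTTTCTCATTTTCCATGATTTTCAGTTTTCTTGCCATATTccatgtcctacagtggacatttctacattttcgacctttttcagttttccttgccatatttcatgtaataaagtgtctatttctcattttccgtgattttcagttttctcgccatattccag

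The 2 kinds stand at opposite ends of base composition. Thymine makes up 45.8%, 47.4% and 46.4% of the Gm10800, Gm10801 and Gm21738 transcripts, shares reached by 0.0775%, 0.0289% and 0.0613% of the 55450 annotated genes. In Gm26870, whose transcript is the opposite strand of the repeat, adenine makes up 45.8%, reached by 0.0703% of genes. Guanine and cytosine make up 60.2% of Gm42418 and 69.1% of Gm26917, reached by 3.17% and 0.280% of genes.

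Gm26917, the model before the 18S copy, was the member with the widest gap between frozen and FFPE wells in both bulk assays, and it was lower in FFPE. In SMART-Seq2 the frozen wells of 100, 50 and 10 nuclei held 4350, 3447 and 1591 CPM. The wells of heated mineral oil held 191, 244 and 453 CPM, those of heated xylene 269, 157 and 387 CPM, and those of room-temperature xylene 198, 153 and 93.4 CPM. No FFPE well reached the lowest frozen well, and the fitted log2 change was -4.01 (SE 0.35, 9 against 3 wells). In SCRB-seq the 16 frozen wells ran from 5300 to 12946 CPM (median 8504), with Gm26917 the third gene by CPM, while the 48 FFPE wells ran from 0 to 1123 CPM (median 262). The groups did not overlap there either, and the log2 change was -4.77 (SE 0.25). For scale, Malat1, an abundant nuclear long noncoding RNA, also did not overlap in SCRB-seq, at 66955 to 114196 CPM in frozen and 2344 to 28080 CPM in FFPE wells, but overlapped in SMART-Seq2, at 11641 to 25955 and 8330 to 18357 CPM.

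Gm42418, the model over the 18S end, went the other way. In SMART-Seq2 the frozen wells of 100, 50 and 10 nuclei held 1594, 1638 and 826 CPM. The mineral oil wells held 3080, 2725 and 3196 CPM, the heated xylene wells 3958, 3453 and 3012 CPM, and the room-temperature xylene wells 3129, 2496 and 1868 CPM. All 9 FFPE wells stood above all 3 frozen wells, with a log2 change of 0.89 (SE 0.27). In SCRB-seq the groups overlapped, at 0 to 1323 CPM (median 480) in 48 FFPE and 136 to 595 CPM (median 213) in 16 frozen wells. The log2 change there was 0.99 (SE 0.23), or 0.40 with DESeq2's size factors, which moved the median of all genes tested from 0.004 to -0.58, so that Gm42418 stayed above that median under both scalings.

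Of the satellite-like members, Gm10800, Gm21738 and Gm26870 were at their highest in frozen SMART-Seq2 wells, and Gm10801 was not. Gm10800 held 50458, 29908 and 24033 CPM in the frozen wells of 100, 50 and 10 nuclei and was the first gene by CPM there. It held 6168, 14780 and 19008 CPM in mineral oil wells, 2499, 409 and 409 CPM in heated xylene wells and 2462, 132 and 2067 CPM in room-temperature xylene wells. No FFPE well reached a frozen one, and the mineral oil wells were the FFPE wells nearest to them.

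Gm10801, the neighbour of Gm10800 on the opposite strand, kept a different pattern. Its frozen wells held 13449, 9288 and 5881 CPM, its mineral oil wells 7114, 14166 and 11077 CPM, its heated xylene wells 1783, 4157 and 6913 CPM and its room-temperature xylene wells 8265, 3964 and 9869 CPM. Its highest well was a mineral oil well, and frozen and FFPE wells overlapped, with a log2 change of -0.68 (SE 0.32) against -3.89 (SE 0.48) for Gm10800. Gm21738 ran from 5364 to 10202 CPM in frozen and 38.8 to 3674 CPM in FFPE wells, and Gm26870 from 3472 to 6499 and 19.4 to 2505 CPM. These last 2 followed Gm10800, with log2 changes of -3.66 (SE 0.47) and -3.63 (SE 0.49).

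So 5 of the 6 members had no overlap between FFPE and frozen SMART-Seq2 wells, 1 higher and 4 lower in FFPE, where 3.72% of 9092 genes were wholly higher and 4.96% wholly lower. In SCRB-seq 1 member, Gm26917, had no overlap and was lower, where 1.29% of 1478 genes were wholly higher and 1.69% wholly lower. This contrast was in view when the members were picked, so these counts describe them and support nothing.

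**Figure D1:**
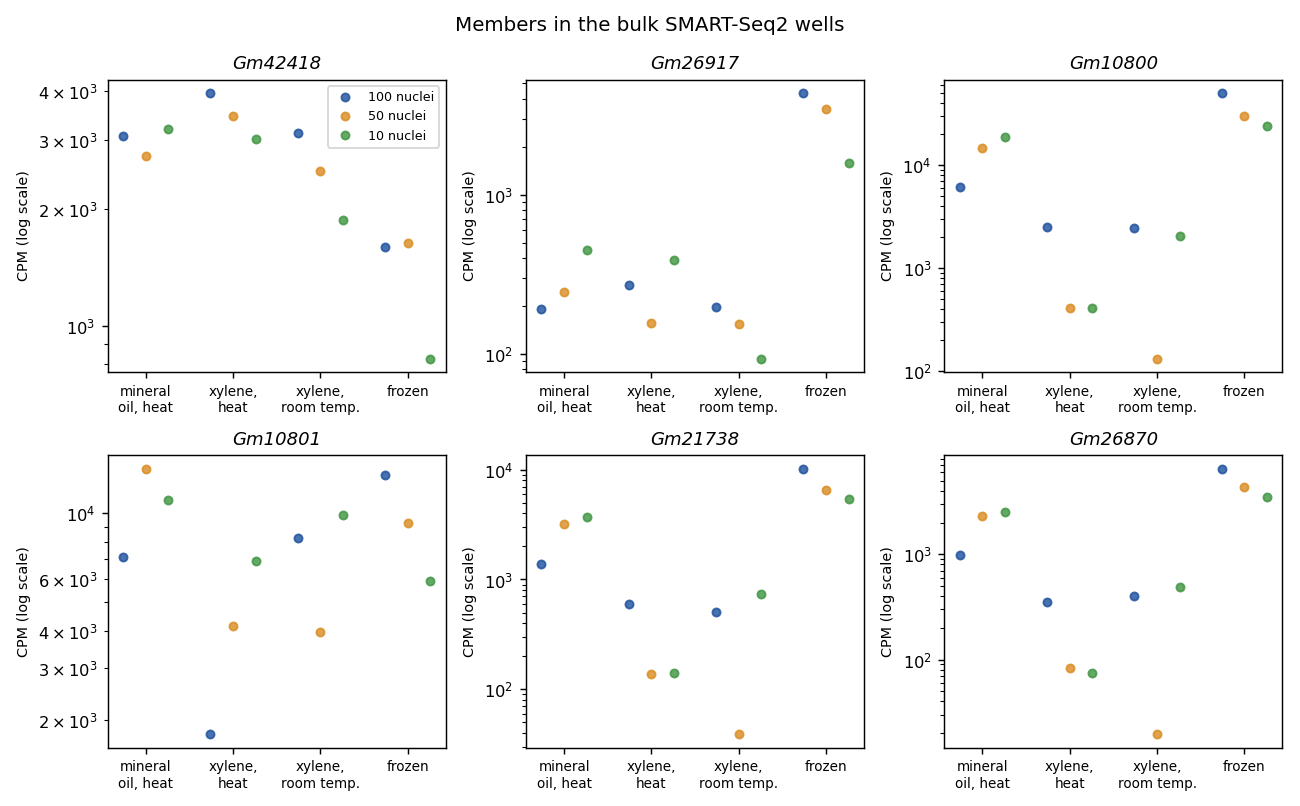
CPM (log scale) of each member in the 12 bulk SMART-Seq2 wells, 1 point per well, by paraffin removal method or frozen tissue, coloured by the number of nuclei. Gm26917 and Gm10800 are lowest in FFPE wells and Gm42418 is highest there; the mineral oil wells of Gm10800 (6168 to 19008 CPM) lie between the xylene and the frozen wells.

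Set per kilobase of annotated exon (for Gm26870 the exons of its 3 transcripts joined, 2692 bases), the order of the members also differed between frozen and FFPE wells. In frozen SMART-Seq2 wells the medians were 45315 CPM per kilobase for Gm10800, 18428 for Gm10801, 9624 for Gm21738 and 1616 for Gm26870, followed by 1036 for Gm26917 and 871 for Gm42418, whose ranges of 478 to 1307 and 451 to 895 overlapped. In FFPE wells Gm10801 had the highest median, 14116 CPM per kilobase (3538 to 28106), above 3731 for Gm10800 (200 to 28800), and those ranges overlapped. Gm42418 followed at 1682 (1020 to 2162), then Gm21738 at 869 (57.0 to 5394), Gm26870 at 149 (7.21 to 930) and Gm26917 at 59.4 (28.1 to 136). Gm42418 and Gm26917, close together in frozen wells, thus did not overlap in FFPE wells. Over its longest transcript alone, of 1170 bases, Gm26870 stood at 3718 CPM per kilobase in frozen and 343 in FFPE wells, at the same place in both orders.

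All 6 members together took 4.12% to 8.66% of the counts of a frozen SMART-Seq2 well, 1.89% to 3.99% of a mineral oil well, 0.839% to 1.09% of a heated xylene well and 0.680% to 1.51% of a room-temperature xylene well. For this sum the mineral oil and xylene ranges did not overlap. Taken singly, Gm10801, Gm42418 and Gm26917 overlapped between the mineral oil and the room-temperature xylene wells. The share of all genes without such an overlap was not counted.

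SCRB-seq, which counts transcript ends, held the same satellite-like members at far lower levels in frozen and mineral oil wells. In xylene wells Gm10800, Gm21738 and Gm26870 overlapped between the assays. Gm10800 reached 1234 CPM there in SCRB-seq and fell to 132 CPM in SMART-Seq2. In frozen wells Gm10800 ran from 0 to 189 CPM (median 86.8, 16 wells) and in FFPE wells from 0 to 1234 CPM (median 42.3, 48 wells), so the groups overlapped, as they did for Gm10801, Gm21738 and Gm26870. The 8 mineral oil wells of 10 nuclei held no count of Gm10800, Gm10801 or Gm21738 among 115185 counts, which allows up to 26.05 CPM each (3 counts, counting error only), and 1 count of Gm26870. Among wells of 100 nuclei, Gm10800 ran from 0 to 131 CPM (median 12.0) with mineral oil, 41.2 to 412 CPM (median 218) with heated xylene and 92.0 to 1234 CPM (median 186) with room-temperature xylene.

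**Figure D2:**
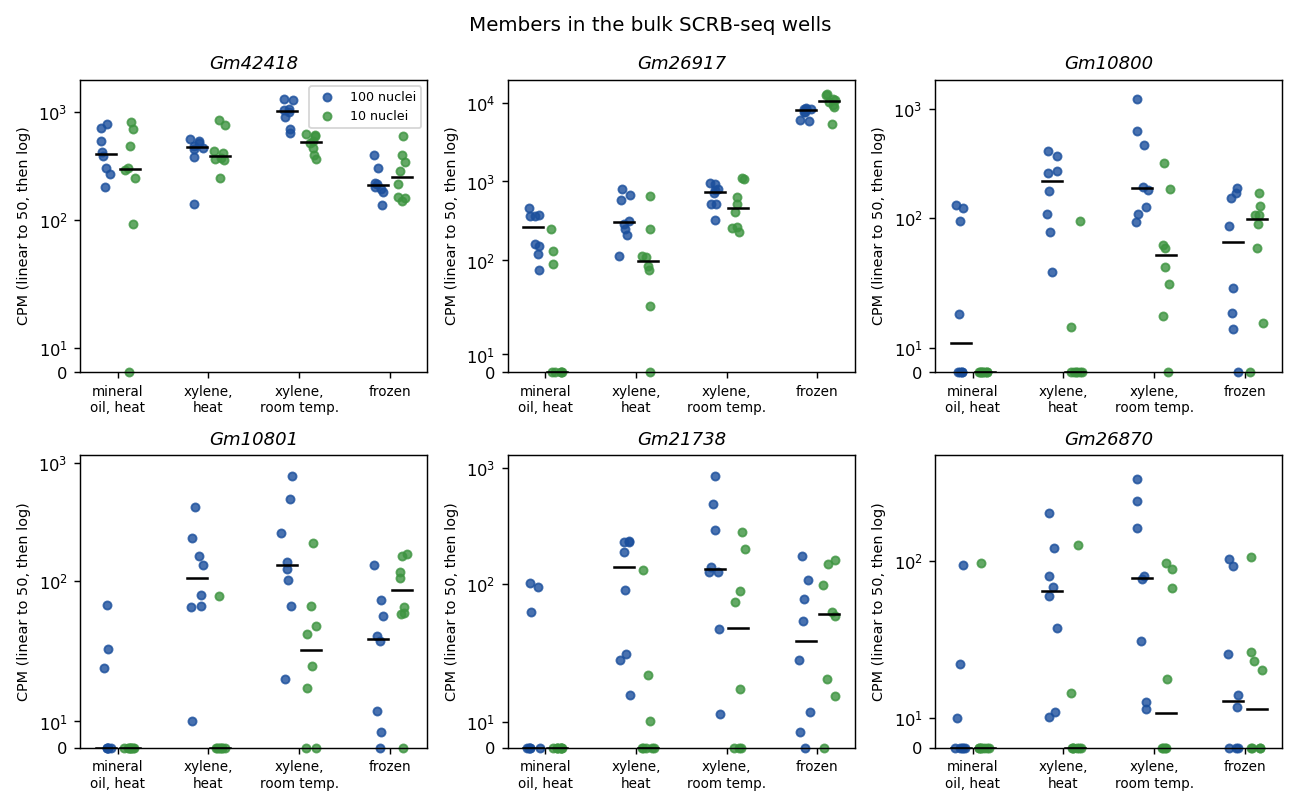
CPM of each member in the 64 bulk SCRB-seq wells (axis linear to 50 CPM, then log), 8 wells per group and nuclei number, with black bars at the medians. Gm26917 stands at 5300 CPM or more in every frozen well and at 1123 CPM or less in every FFPE well, and in mineral oil wells the satellite-like members reach at most 131 CPM (Gm10800).

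The comparison of removal methods asks whether the way paraffin was taken off changes what is counted. In SCRB-seq, both rRNA-like members were lower with heated mineral oil than with room-temperature xylene. Gm42418 in wells of 100 nuclei ran from 202 to 777 CPM (median 408) with mineral oil, 141 to 564 CPM (median 471) with heated xylene and 637 to 1323 CPM (median 1021) with room-temperature xylene. Gm26917 in the same wells ran from 75.3 to 466.2 CPM (median 262), 115 to 798 CPM (median 303) and 327 to 944 CPM (median 743). In each case the room-temperature wells were high, and they overlapped the mineral oil wells in part. Over all 48 FFPE wells, Gm42418 fell by 0.97 on the log2 scale (SE 0.27, adjusted p = 0.0156) in edgeR's quasi-likelihood fit, with p-values adjusted by Benjamini-Hochberg over all genes. Gm26917 fell by 1.90 (SE 0.44). These were the 2 members that passed the filter on low counts. Gm26917 had 7 counts in the 8 mineral oil wells of 10 nuclei. It passed the filter only together with its xylene wells, so its change is given with no test. Gm42418 was called, where 10.3% of the 1080 genes tested were called, 84 lower and 27 higher. DESeq2's Wald test also called Gm42418, among 13.3% of genes. In wells of 10 nuclei alone only Gm42418 passed the filter, at -0.88 (SE 0.48, edgeR adjusted p = 0.219), and was not called, where 19.1% of 509 genes were. The median change of all genes was -0.13, or -0.22 with DESeq2's size factors.

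Markers of other cell types moved with the removal methods in SCRB-seq. The 4 oligodendrocyte markers summed to 0 to 1364 CPM (median 165) with mineral oil, 725 to 4705 CPM (median 1819) with heated xylene and 295 to 12687 CPM (median 1698) with room-temperature xylene. The 3 GABAergic neuron markers summed to 0 to 316 CPM (median 72.9), 69.1 to 1377 CPM (median 455) and 218 to 738 CPM (median 447). Mag, a myelin protein gene, Gad2, a GABA-synthesizing enzyme gene, and Cldn5, an endothelial marker, were at 0 in all mineral oil wells. No marker of these lists was at 0 throughout the wells of a xylene group. Other lists had their higher median with mineral oil: against room-temperature xylene, the granule neuron markers stood at 1440 and 847 CPM, the astrocyte markers at 1064 and 758 CPM, the microglia markers at 146 and 56.7 CPM and the endothelial markers at 186 and 166 CPM, with ranges that overlapped. Malat1 ran from 2344 to 16920 CPM with mineral oil, 4912 to 19038 CPM with heated xylene and 7306 to 28080 CPM with room-temperature xylene. The part of these markers and of Malat1 in the members' differences between methods was not tested.

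Between mineral oil and heated xylene, 0 of these 2 members were called by edgeR or by DESeq2, where edgeR called 8.52% of genes and DESeq2 8.89%. Gm42418 changed by -0.25 (SE 0.27) and Gm26917 by -0.70 (SE 0.44), both with unadjusted p above 0.05. Between heated and room-temperature xylene, 0 of 2 were called by edgeR, where 1.94% of genes were. There Gm42418 changed by -0.72 (SE 0.27, adjusted p = 0.155) and Gm26917 by -1.19 (SE 0.42, adjusted p = 0.122), both with unadjusted p under 0.05, and DESeq2 called 1 of them, Gm42418 (adjusted p = 0.0386), among 3.33% of genes. A p that misses the threshold does not show that the methods gave like levels.

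Of the satellite-like members, 3 of 4 passed the filter in SCRB-seq only in wells of 100 nuclei, and through their xylene wells, so their changes are given as values with no test. With mineral oil against room-temperature xylene, Gm10800 changed by -2.94 (SE 0.69), Gm10801 by -3.84 (SE 0.79) and Gm21738 by -2.95 (SE 0.78). Against heated xylene, Gm10800 changed by -2.17 (SE 0.70), Gm10801 by -3.10 (SE 0.80) and Gm21738 by -2.01 (SE 0.79). In the same wells the rRNA-like members were tested too. Between mineral oil and room-temperature xylene edgeR called both, Gm42418 at -1.08 (SE 0.28, adjusted p = 0.0111) and Gm26917 at -1.35 (SE 0.37, adjusted p = 0.0153), where 9.11% of 1953 genes were called. Between mineral oil and heated xylene it called 0 of these 2, where 13.1% of genes were called. Between the 2 xylene methods it called 1 of 2, Gm42418 at -1.09 (SE 0.28, adjusted p = 0.0174), where 5.99% of genes were called. With no filter on low counts all 6 members entered the fit over all 48 wells, and edgeR called 6 of 6 between mineral oil and room-temperature xylene, where 16.1% of 18205 genes were called, 4 of 6 between mineral oil and heated xylene (all 4 satellite-like), where 18.8% were, and 0 of 6 between the 2 xylene methods, where 15.9% were.

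In SMART-Seq2 the satellite-like members pointed the other way, with mineral oil wells higher than heated xylene wells, but no gene passed the test. Between mineral oil and heated xylene, edgeR gave log2 changes of 3.65 for Gm10800 (SE 0.71, adjusted p = 0.0716), 3.29 for Gm21738 (SE 0.72, adjusted p = 0.189) and 3.56 for Gm26870 (SE 0.79, adjusted p = 0.189). Gm10801 stood at 1.27 (SE 0.38, adjusted p = 0.672), Gm42418 at -0.22 (SE 0.28) and Gm26917 at 0.11 (SE 0.72), beside a median of -0.09 over all genes. Of the 6 members, 0 were called, where 0% of 8372 genes were, 4 had an unadjusted p under 0.05, as 314 genes did, and DESeq2's Wald test called 3 (Gm10800, Gm21738 and Gm26870, adjusted p = 0.0272, 0.0444 and 0.0313) among 16 genes (0.191%). With no filter edgeR called the 4 satellite-like members, among 0.117% of 16292 genes. Leaving out the mineral oil well or the heated xylene well of 100 nuclei let edgeR call 3 members, among 0.0433% and 0.0651% of genes, and leaving out either well of 50 nuclei let it call 1, among 0.0104% and 0.0324%. Markers of 3 cell types had no overlap in this comparison. The 4 oligodendrocyte markers summed to 41.0 to 1240 CPM with mineral oil and 1819 to 2047 CPM with heated xylene, the 3 glutamatergic neuron markers to 1322 to 1495 and 768 to 1005 CPM, and the 3 endothelial markers to 39.04 to 179 and 0 to 23.0 CPM, with Cldn5 at 0 in all heated xylene wells. Their part in the members' values was not tested.

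Between mineral oil and room-temperature xylene, Gm10800 stood at 3.19 (SE 0.69, edgeR adjusted p = 0.149), Gm21738 at 2.75 (SE 0.70, adjusted p = 0.493) and Gm26870 at 2.74 (SE 0.76, adjusted p = 0.576). Here 0 of 6 were called, where 0% of genes were, 3 had an unadjusted p under 0.05, as 379 genes did, and DESeq2 called 0 members among 20 genes (0.239%). With no filter edgeR called 3 of 6, Gm10800, Gm21738 and Gm26870, where 0.0982% of genes were called. Leaving out a mineral oil or room-temperature xylene well of 100 or of 50 nuclei let edgeR call 1, Gm10800, among 0.0104% to 0.0317% of genes. The 3 GABAergic neuron markers summed to 198 to 414 CPM with mineral oil and 745 to 1072 CPM with room-temperature xylene, with no overlap and none at 0 in either group, and their part here was not tested. Between the 2 xylene methods 0 of 6 were called, where 0% of genes were, 1 had an unadjusted p under 0.05, as 199 genes did, and DESeq2 called 0 members and 1 gene (0.0119%). With no filter edgeR also called 0 of 6, where 0.0307% of genes were called. The changes ran from -0.82 for Gm26870 to 1.01 for Gm26917. The difference between SCRB-seq and SMART-Seq2 in the mineral oil contrasts was not tested.

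Between FFPE wells of 100 and of 10 nuclei, Gm26917 was higher in the larger wells in SCRB-seq. In FFPE wells of 100 nuclei Gm10800 had a count in 20 of 24 wells (median 126 CPM), and in wells of 10 nuclei in 9 of 24 (median 0 CPM). With the removal method in the fit, Gm26917 was higher by 0.87 (SE 0.35, edgeR adjusted p = 0.0479), while Gm42418 stood at 0.33 (SE 0.22, adjusted p = 0.240). That made 1 of the 2 rRNA-like members, where 33.5% of 1979 genes were called, and DESeq2's Wald test called both, among 54.7% of genes. Gm10800, at 2.54 (SE 0.52), and Gm21738, at 1.92 (SE 0.57), passed the filter through the wells of 100 nuclei, so these values are given with no test. With no filter edgeR called 5 of 6 members, where 27.7% of genes were called. The median of all genes was 0.31, or 0.75 with DESeq2's size factors, so Gm42418 lay close to that median under both scalings (0.33 and 0.76, the second called). Within the xylene wells alone Gm26917 stood at 0.58 (adjusted p = 0.254) and was not called.

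In SMART-Seq2 wells no such order held for the FFPE groups. Gm10800 was highest in the 10-nuclei well with mineral oil, 19008 CPM, and in the 100-nuclei wells with heated and room-temperature xylene, 2499 and 2462 CPM. With 1 well per group and nuclei number, this has no test.

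A ratio between 2 members of 1 well does not depend on the well's depth, and gene length cancels when the same ratio is set side by side across groups. The ratio of Gm26917 to Gm42418 counts ran from 1.93 to 2.73 in frozen SMART-Seq2 wells and from 0.045 to 0.142 in the 9 FFPE wells, where the removal methods overlapped. In SCRB-seq it was 36.3 over the summed counts of the frozen wells (8.91 to 78.7) and 0.735 over those of the FFPE wells. There it ran from 0 to 2.95 in the 47 of 48 FFPE wells that held a Gm42418 count. Among wells with a ratio, the ranges of FFPE and frozen wells did not overlap in either assay.

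Among the satellite-like members, 3 kept nearly fixed proportions across the SMART-Seq2 wells and 1 did not. Gm21738 stood at 0.193 to 0.354 of Gm10800 and Gm26870 at 0.500 to 0.788 of Gm21738 in all 12 SMART-Seq2 wells. Gm10801 stood at 0.245 to 0.311 of Gm10800 in frozen wells, 0.583 to 1.15 with mineral oil, 0.714 to 16.9 with heated xylene and 3.36 to 29.96 with room-temperature xylene. No FFPE well reached down to the frozen range. In SCRB-seq the ratio of Gm10801 to Gm10800 over summed counts was 0.321 with mineral oil (9 against 28 counts), 0.632 with heated xylene, 0.642 with room-temperature xylene and 0.747 in frozen wells. Within wells that held Gm10800 it ran from 0 to 2 in 29 FFPE wells and from 0.333 to 3 in 14 frozen wells, so these groups overlapped, with few counts behind many of the ratios. Gm21738 over Gm10800 in SCRB-seq, over summed counts, was 0.679, 0.640, 0.706 and 0.760 in the same order of groups. These values lie above its SMART-Seq2 range.

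**Figure D3:**
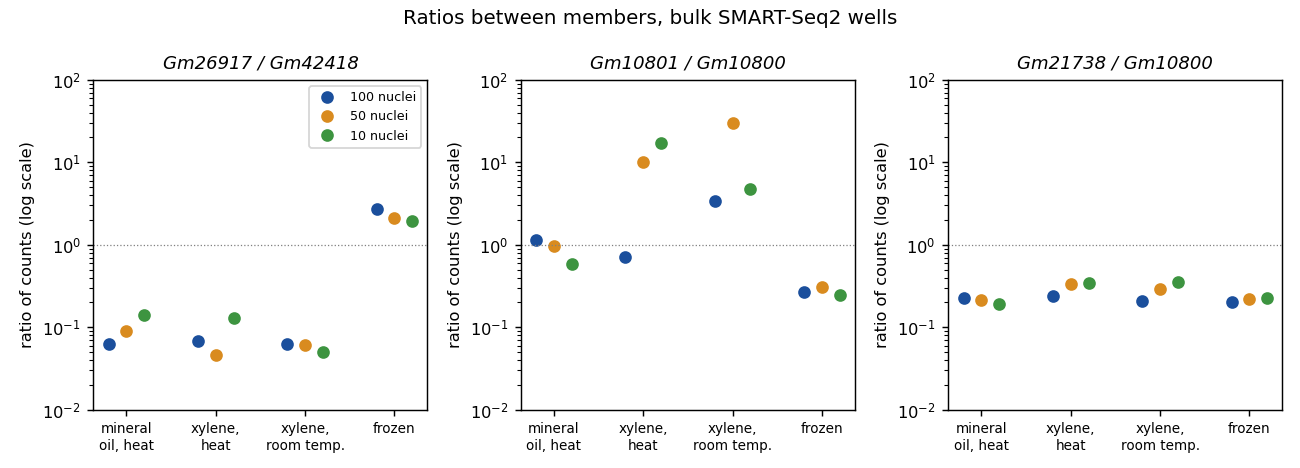
Ratios of counts between members (log scale) in the 12 SMART-Seq2 wells, 1 point per well; the dotted line marks equal counts. Gm26917/Gm42418 lies at 1.93 to 2.73 in frozen and 0.045 to 0.142 in FFPE wells, Gm10801/Gm10800 spreads from 0.245 to 29.96, and Gm21738/Gm10800 stays between 0.193 and 0.354.

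Across the 12 SMART-Seq2 wells, the genes most like each member were found by Pearson's r of log2(CPM + 1) among 4132 genes of at least 50 CPM, as a description with wells sharing treatment and depth. Gm10800, Gm21738 and Gm26870 were each other's nearest genes, with r of 0.997 to 0.998. The next gene was Sirt2, a deacetylase abundant in oligodendrocytes, for Gm10800 (0.861) and Tmem178b for Gm21738 and Gm26870 (0.887 and 0.888). Gm10801 was less like them, at 0.561 to 0.587, and its nearest genes were Gm15155 (0.748), Tra2b, a splicing regulator (0.730), and Chl1, a cell adhesion molecule (0.714). Gm42418 was nearest to Lsamp (0.948), Ccdc92 (0.932) and Syt2, a synaptotagmin of fast synapses (0.931), and Gm26917 to Snhg11 (0.936), R3hdm1 (0.912) and Plk2 (0.911). Over the 9 FFPE wells alone these values were lower. They were 0.724, 0.696 and 0.764 for the genes near Gm42418, and 0.328, 0.673 and 0.430 for those near Gm26917. Between Gm42418 and Gm26917 r was -0.628 over the 12 wells and 0.607 over the 9 FFPE wells, so the negative value rested on the frozen wells.

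Single nuclei on SMART-Seq2 plates held all 6 members, with each nucleus weighted equally below. With 1 sample per group there is no test, and nuclei are not replicates. Together the members took 11.2% of an average batch 1 nucleus, 2.39% of a batch 2 nucleus and 1.72% of a frozen nucleus, with the highest nuclei at 50.4%, 13.7% and 7.53%. Median totals were 180584, 42747 and 255329 counts per nucleus.

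Gm10801 made up most of the batch 1 share. It averaged 8.68% of counts (median 7.72%, highest nucleus 48.2%), it took 10% or more in 35 of 98 nuclei, and it was the first gene by mean CPM. Plate MB18 carried this: its 70 nuclei averaged 116017 CPM of Gm10801, against 13880 CPM in the 28 nuclei of plate MB17, and all 35 such nuclei were on it. In batch 2 Gm10801 averaged 0.458% of counts (median 0.152%) and in frozen nuclei 0.121% (median 0.028%).

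Gm10800 averaged 9952, 3406 and 1899 CPM in batch 1, batch 2 and frozen nuclei, Gm21738 averaged 6354, 2071 and 823 CPM, and Gm26870 averaged 3719, 1304 and 558 CPM. The batch means of all 3 were thus higher in FFPE than in frozen nuclei, the opposite order to the bulk SMART-Seq2 wells. Plate MB14, with 67 of the 134 batch 2 nuclei, did not share this order for Gm10800 and Gm26870. Its Gm10800 lay below both frozen plates, and its Gm21738 and Gm26870 lay between them. On MB14 Gm10800 averaged 1308 CPM, Gm21738 854 CPM and Gm26870 528 CPM, against 1385 and 2421, 637 and 1012, and 465 and 653 CPM on frozen plate1 and plate2. Plate MB16, the other batch 2 plate, averaged 5503, 3288 and 2081 CPM. The means were carried by a few nuclei: in frozen nuclei Gm10800 had a median of 0.042% and a highest value of 3.94% of counts.

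In their group means the 2 rRNA-like members kept the order seen in wells, with 1 FFPE plate, MB17, apart. Gm26917 averaged 1016 CPM in batch 1, 3335 in batch 2 and 9752 in frozen nuclei (12206 on plate1 and 7261 on plate2), where it was the first gene by mean CPM. Gm42418 averaged 4090, 9175 and 2948 CPM and was the first gene in batch 2. In batch 1 it averaged 5619 CPM on MB18 but 267 CPM on MB17, below the frozen nuclei. Gm26917 averaged 546 CPM on that plate with 1 nucleus at 9752 CPM, and by median it stood at 25.7 CPM, below 41.6 CPM for Gm42418. Gm26917 had more counts than Gm42418 in 11.2% of batch 1 nuclei (32.1% on MB17 and 2.86% on MB18), 13.4% of batch 2 and 71.5% of frozen nuclei.

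**Figure D4:**
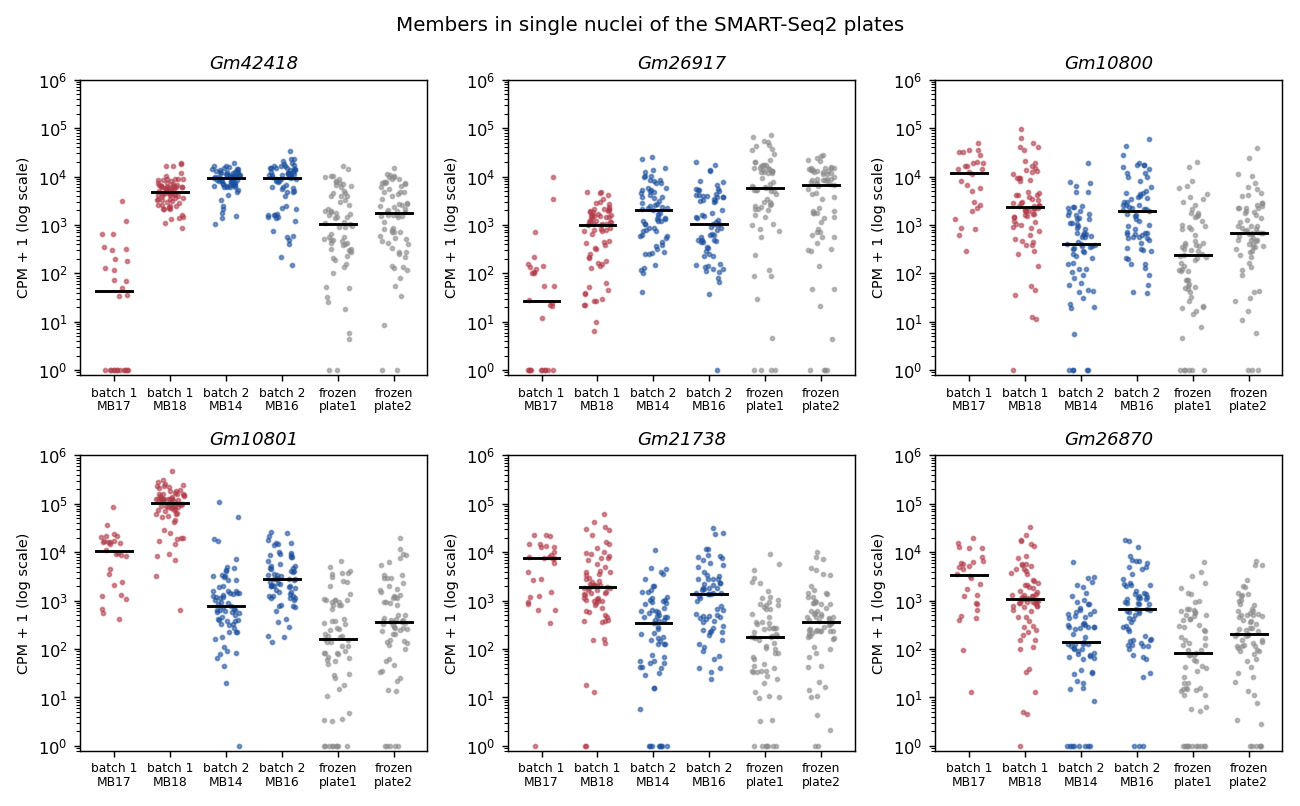
CPM plus 1 (log scale) of each member in single nuclei, 1 point per nucleus, by plate, with black bars at the medians; red is FFPE batch 1, blue FFPE batch 2 and grey frozen. Gm10801 on plate MB18 and Gm26917 on the frozen plates stand above the other plates, and Gm42418 is lowest on MB17.

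In single nuclei, too, Gm10801 was the satellite-like member whose proportion moved. The median ratio of Gm21738 to Gm10800 was 0.758 in batch 1, 0.617 in batch 2 and 0.532 in frozen nuclei, over nuclei with at least 10 counts of the pair. That of Gm10801 to Gm10800 was 13.8, 1.22 and 0.591, with 38.6 on MB18 and 0.684 on MB17. Within single plates, whose nuclei share handling and chemistry, Spearman's rho between Gm10800 and Gm21738 was 0.88 on MB17 (28 nuclei) and 0.97 on MB18 (70), 0.89 on MB14 and 0.94 on MB16 (67 each), and 0.86 and 0.91 on frozen plate1 (69) and plate2 (68). Between Gm10800 and Gm10801 it was 0.58 on MB17, 0.25 on MB18, 0.58 on MB14, 0.69 on MB16, and 0.89 and 0.86 on the frozen plates. Pooling the batch 1 plates, whose Gm10801 levels differ, gave 0.02 for that pair. Between Gm42418 and Gm26917 it was 0.32, 0.11, -0.014 and 0.27 on the FFPE plates in the same order, and 0.46 and 0.58 on the frozen plates.

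In the droplet library Gm42418 was the first of 19905 genes by UMI count, and the other members were near 0. It took 73229 of 2605198 UMIs, 2.81% (exact Poisson 95% interval 2.79% to 2.83%, counting error only), and was seen in 7027 of 7031 nuclei, whose median total was 325 UMIs. No barcode was listed more than once, and no doublet caller was run, so doublets were not counted. Gm26917 had 44 UMIs (16.9 CPM, 12.3 to 22.7), Gm10800 2 and Gm26870 1. AY036118, the antisense model inside Gm42418, had 2871 UMIs (1102 CPM).

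Gm42418 was also the first gene by UMI count within each of the 12 annotated classes. The order was Endothelial 3.41% (3.26% to 3.57%), Microglia 3.09%, Oligodendrocyte 3.07%, ExNeuron2 3.02%, Fibroblast 2.95%, Astrocyte 2.85%, ExNeuron1 2.78%, ExNeuron5 2.74%, ExNeuron3 2.72%, OPC 2.70%, ExNeuron6 2.63% and ExNeuron4 2.62% (2.56% to 2.67%). Every class overlapped its neighbours in this order, and the intervals of Endothelial and ExNeuron4 at its ends lay apart. Markers of 1 class were also counted in the others: the 4 oligodendrocyte markers summed to 10648 CPM in Oligodendrocyte nuclei and to 1211 to 2547 CPM in the other 11 classes, whose median totals, like those of Oligodendrocyte, lay between 285 and 396 UMIs. How much of the Gm42418 count in a class came from free RNA, and its part in the class order, was not tested. The share per nucleus had a Spearman's rho of -0.15 with total UMIs and 0.17 with the mitochondrial fraction over all nuclei.

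**Figure D5:**
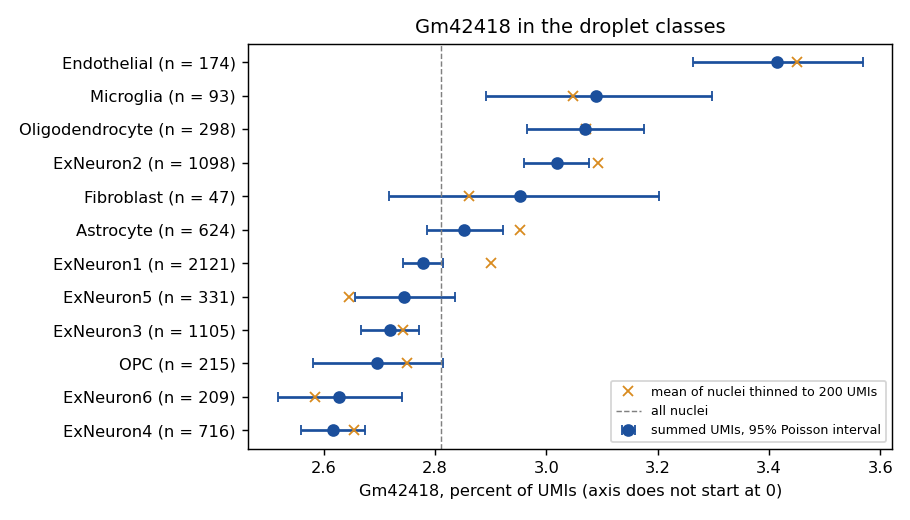
Gm42418 as a percentage of UMIs in each droplet class (axis not from 0), with exact Poisson intervals on summed UMIs and crosses for nuclei thinned to 200 UMIs; the dashed line is all nuclei. The 12 classes lie between 2.62% and 3.41%.

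Further rows of the same kinds were few. Of 9 satellite-like models near the start of chromosome 9, only Gm10715 had a row, in the plate batch tables. Of 10 listed rRNA-like rows, 2 had a row in wells and plates and 3 in droplets. Lars2, the mitochondrial leucyl-tRNA synthetase gene on that list, stood at 146 to 337 CPM in FFPE and 23.6 to 44.4 CPM in frozen SMART-Seq2 wells without overlap, and at 0 to 1014 and 40.4 to 306 CPM in SCRB-seq wells with overlap. Gm15564 stayed under 100 CPM in every SCRB-seq group and stood at 550 CPM over all droplet nuclei, from 314 CPM in OPC to 688 CPM in ExNeuron2.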

How the data were processed

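Nuclei of mouse brain were profiled in bulk wells (SCRB-seq, a tag-counting assay, and SMART-Seq2, a full-length assay), on SMART-Seq2 plates and in droplets. The authors deposited raw count tables, read as whole-number counts per gene and well or nucleus (UMI counts for droplets), with groups in deposited annotation tables. No source used here gives the aligner, the counter, its strand, its handling of multiple matches or, for SCRB-seq, a collapsing by UMI. The builds hg19 and mm10 are named, per the submitters' processing notes. Rows with the mouse prefix were used in the SCRB-seq table. The plate table labelled batch 3 held no nuclei and was not analysed here. No doublet caller was run.

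The 6 members, the gene lists and the tests were chosen with earlier results of these data known. CPM, counts per 1000000, were computed from each well's or nucleus's own mouse total. Removal methods were compared by the quasi-likelihood test of edgeR 4.0.16 (R 4.3.3), after TMM scaling and filterByExpr, with Benjamini-Hochberg adjustment over all genes tested and a threshold of 0.05, with all FFPE wells in 1 fit. DESeq2 1.42.0 (Wald test, and its size factors), no filter, single nuclei numbers, a nuclei number term and each SMART-Seq2 well left out were alternatives. On simulated counts edgeR recovered 194 of 200 genes changed 4-fold in SCRB-seq (1056 genes, mineral oil against heated xylene) and 164 of 200 in SMART-Seq2 (7861 genes). The simulation gave every gene the same preset spread, which was not estimated from the wells. Its rates therefore do not say how often such a change would be found in these data. Named genes are the members, the 3 genes most like each over the SMART-Seq2 wells, 2 lists of satellite and rRNA-like rows, and Malat1; cell type markers come from a further list, and those named were at 0 in a group, chosen after their values were seen. Sequences and features were read from GENCODE M21 transcripts and RefSeq with Biopython 1.88.

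No GEO label pairs samples, and same-numbered wells share only their nuclei number. The total counts per well or nucleus set the precision, and intervals cover counting error only.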

Additional observations from a re-analysis of the deposited data

Results flagged for a closer look

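Among 45 sets of 8 SCRB-seq wells (1 member in 1 group at 1 nuclei number), 11 had a well far from the other 7, where chance alone flags about 1 in 20 sets of continuous values. That rate does not hold for sets that are mostly 0, where 1 well with a count can be enough, and most of the 11 rest on a handful of counts.

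In 1 heated xylene well of 10 nuclei all 4 satellite-like members stood out as the highest of the 8 wells: Gm10800 at 93.4 CPM (5 counts), Gm10801 at 74.7 CPM (4 counts), Gm21738 at 131 CPM (7 counts) and Gm26870 at 131 CPM (7 counts). The next wells held 0 to 28.2 CPM. In the same group another well held 657 CPM of Gm26917 (35 counts), above 252 CPM in the next.

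A room-temperature xylene well of 100 nuclei held 1234 CPM of Gm10800 (131 counts), above 623 CPM in the next. A room-temperature xylene well of 10 nuclei held 209 CPM of Gm10801 (26 counts), above 61.6 CPM. A heated xylene well of 100 nuclei was low in Gm42418, at 141 CPM (8 counts) below 381 CPM in the next.

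Gm26870 stood out in 3 further groups, at 93.2 CPM in a mineral oil well of 100 nuclei (3 counts), at 95.8 CPM in a mineral oil well of 10 nuclei (1 count) and at 106 CPM in a frozen well of 10 nuclei (4 counts).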

How the results depend on the processing

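In SCRB-seq, mineral oil against heated xylene called 0 of 2 members (8.52% of genes), 4 of 6 with no filter on low counts (18.8%) and 2 of 5 in wells of 100 nuclei alone (13.1% of genes). Heated against room-temperature xylene called 0 of 2 (1.94%), and 1 with DESeq2's Wald test (3.33% of genes), with a nuclei number term (5.74%) or in wells of 100 nuclei alone (5.99%). Mineral oil against room-temperature xylene called 2 of 2 (10.3% of genes), 6 of 6 with no filter (16.1%), 5 of 5 in wells of 100 nuclei alone (9.11%) and 0 of 1 in wells of 10 nuclei alone (19.1%). Of the 2 of 2, Gm26917 passed the filter only together with its xylene wells, so its call is no test result. In wells of 100 nuclei the 2 of 5 and 3 of the 5 of 5 are satellite-like members that passed the filter through xylene wells, so they are no test results; of the rRNA-like members 0 of 2 and 2 of 2 were called. The nuclei number called 3 of 4 (33.5% of genes), of which Gm10800 and Gm21738 passed the filter through wells of 100 nuclei and are likewise no test results, and 5 of 6 with no filter (27.7%). In SMART-Seq2, mineral oil against heated xylene called 0 of 6 (0% of genes), 4 with no filter (0.117%), 3 with DESeq2's Wald test (0.191%) and 0 to 3 when 1 well was left out (0% to 0.0651%). Against room-temperature xylene it called 0 (0%), 3 with no filter (0.0982%) and 0 to 1 with a well left out (0% to 0.0317%), and the 2 xylene methods gave 0 to 0 with a well left out (0%). Without a filter the fits cover 18205 and 16292 genes, most with few counts, and the cause of the added calls was not tested.

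No paired analysis of samples was possible because no label pairs them; a fit with the nuclei number as a replicate block called 0 of 6 members in each SMART-Seq2 comparison, as without the block.

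The sign turned for Gm42418 in SCRB-seq, mineral oil against heated xylene, to 0.010 in wells of 100 nuclei alone. With 1 SMART-Seq2 well left out it turned for Gm26917, mineral oil against heated xylene, which ran from -0.43 to 0.54 (the mineral oil well of 10 nuclei left out gave -0.43, the heated xylene well of 50 gave -0.19), and between the xylene methods for Gm10800, from -1.77 to 0.010 (without the room-temperature well of 100 nuclei), and Gm21738, from -1.49 to 0.17 (without the room-temperature well of 10 nuclei). In wells of 10 nuclei alone, the log2 ratio of mean CPM of FFPE to frozen turned to -1.28 for Gm10800, -2.15 for Gm10801, -1.03 for Gm21738 and -0.19 for Gm26870 in SCRB-seq, and to 0.66 for Gm10801 in SMART-Seq2. Of single-member values under an alternative, 256 kept direction and side of the threshold or stayed within the spread, 60 moved further, 27 newly passed the threshold, 2 no longer passed and 10 reversed; the cause was not tested.

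The share of all 6 members, 11.2% in batch 1, was 12.1% over summed counts and 11.9% with nuclei thinned to 10000 counts. In batch 2 it was 2.39%, 2.64% and 2.30%, and in frozen nuclei 1.72%, 1.64% and 1.66%. Over the FFPE nuclei set beside the frozen ones it was 2.48%, 4.74% and 2.42%, and 2.39% without 9 nuclei found in no batch table. Gm42418 in droplets was 2.81%, or 2.88% with nuclei weighted equally and 2.88% when thinned to 200 UMIs. Depth limits the satellite-like members in SCRB-seq, where a well of 7512 counts cannot show a level of a few counts with any precision.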

Other observations

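The table that sets FFPE beside frozen plate nuclei holds 143 FFPE nuclei, of which 134 are those of batch 2 with identical member counts and 9 are in neither batch table. The 9 held 102136 to 4973791 counts each. In them Gm10800 averaged 11898 CPM (median 2575), Gm10801 6534 CPM (median 4437), Gm21738 7003 CPM, Gm26870 4334 CPM, Gm42418 4083 CPM (median 412) and Gm26917 4549 CPM (median 1084). All 6 members together averaged 3.84% of their counts, with the highest nucleus at 8.70%.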
